A study of Mus musculus with 8 samples.

Results

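The expression of 10 genes of Rac signalling was examined in the retinas of *Rbfox2*-/- and control mice: the Rac GTPase-activating protein gene *Arhgap15*, the other genes of its subfamily (*Arhgap9*, *Arhgap12* and *Arhgap27*), the small GTPase genes *Rac1*, *Rac2* and *Rac3*, and the kinase genes *Pak1*, *Pak2* and *Pak3*. The genes were taken by symbol from a table of 17500 genes, of which 16797 passed the filter on low counts, and all 10 were present and passed it. They were grouped around *Arhgap15* because that gene was selected on its own measured difference in level between the groups of these same mice, so the values of *Arhgap15* are given as a description, without a test. RNA was sequenced from the whole retina of 4 mice labelled Rbfox2 KD (M893, M901, M902 and M909, called *Rbfox2*-/- here) and 4 mice labelled control (M833, M894, M896 and M898), all 6 months old on a C57BL/6J background. The *Rbfox2*-/- animals carried *Rbfox2* fl/fl and a tamoxifen-inducible Cre recombinase that is active in the whole body and not in the retina alone, and had received tamoxifen as adults, 4 months before collection. Controls were heterozygous *Rbfox2* fl/+ animals according to the methods of the study, and thus carried 1 floxed allele, with their Cre status not stated. The treatment label gives tamoxifen for all 8 mice. The methods of the study do not state whether the 4 control animals were given tamoxifen or vehicle.

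Rac proteins are switches that are active while they hold GTP. Exchange factors load them with GTP, GTPase-activating proteins such as Arhgap15 make them hydrolyse it, and GDP-dissociation inhibitors keep them in the cytosol. Active Rac binds the Pak kinases and the WAVE complex, which act on the actin cytoskeleton, and in phagocytes it is also a subunit of the NADPH oxidase. In neurons this pathway is known for shaping dendrites, axons and synapses, and Arhgap15 has been studied in leukocytes as well as in neurons.

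Each library held from 160630226 to 211283591 fragments counted on genes, and 3 counts corresponded to between 0.0142 and 0.0187 CPM, the counts scaled to a common library size. *Rbfox2*, the targeted gene, was at 53.6 to 59.4 CPM in *Rbfox2*-/- and at 144 to 157 CPM in control retinas. M901 and M902 stood apart from the other mice on the first axis of a principal component analysis (40.5% of the variance). They were the only libraries with many *Xist* reads (277506 and 275967 counts against 312 to 426). Both are *Rbfox2*-/- mice, so sex, as read from *Xist*, is partly confounded with group. M909 stood apart on the second axis (19.2%). Where leaving out a mouse, or M901 and M902 together, moved a member's log2 fold change by over 1.5 times, the value without it, or the range over such fits, is given beside it. *Rbfox2*-/- and control mice were set against each other by the quasi-likelihood test of edgeR, and the false discovery rate (FDR) is the Benjamini-Hochberg adjusted p over all genes tested. By this test 11 of 16797 genes, or 0.0655%, had an FDR under 0.05. The unadjusted p was under 0.05 for 13.3% of the genes, and for 7.03% every mouse of one group was above every mouse of the other. In whole retina, fewer cells of a type and less RNA per cell cannot be told apart.

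*Arhgap15* (chr2:43748824-44395953, plus strand, GRCm38) was about 2 times as abundant in *Rbfox2*-/- retinas. Its level was 2.91, 3.06, 2.70 and 3.01 CPM in controls (mice M833, M894, M896, M898), and 5.82, 6.18, 5.27 and 5.73 CPM in the *Rbfox2*-/- mice M893, M901, M902 and M909. The 4 *Rbfox2*-/- mice were thus all above the 4 controls, and the lowest of them was separated from the highest control by 0.78 on the log2 scale. The values rest on 517 to 606 counts in controls and 836 to 1192 counts in *Rbfox2*-/- mice. The group means were 2.92 ± 0.159 and 5.75 ± 0.376 CPM (SD, n = 4 each), a ratio of 1.97 and a fitted log2 fold change of 0.98 (standard error 0.081). No other of the 10 genes had a log2 fold change above 0.23 or below -0.28. Without M901 and M902 the log2 fold change of *Arhgap15* was 0.98, and over all alternative settings it lay between 0.94 and 1.02. The plot of each mouse relative to the control mean shows this gap beside the small differences of the other members.

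**Figure D1:**
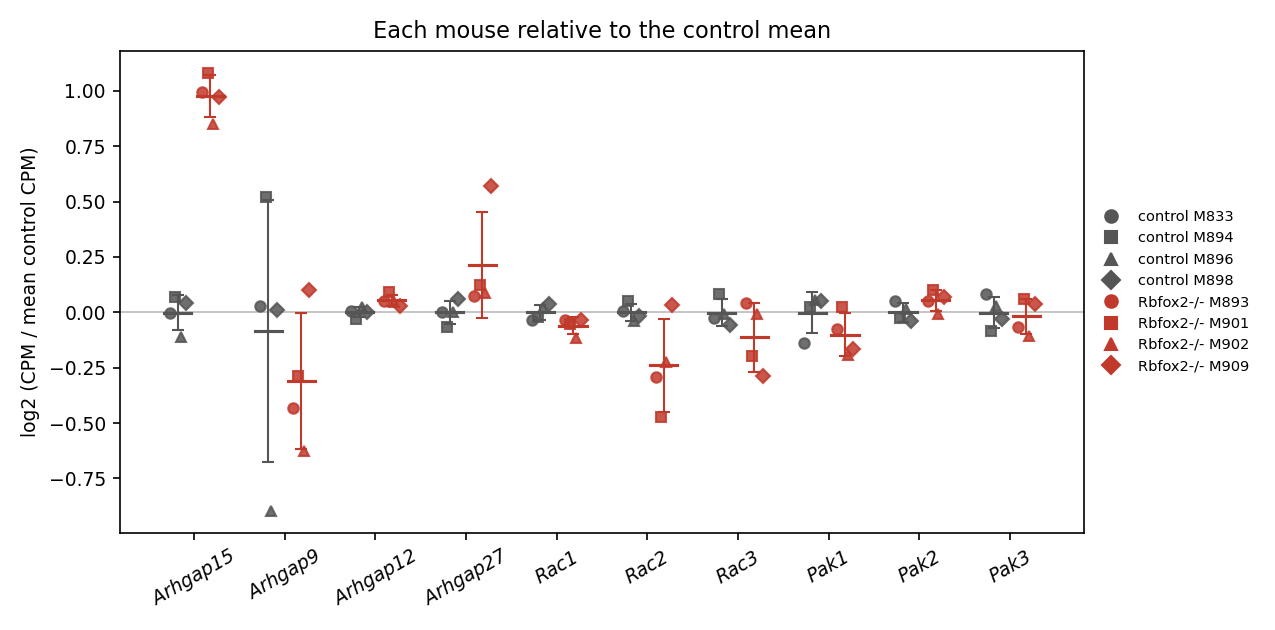
Log2 of the CPM of each mouse over the mean control CPM (vertical axis) for the 10 genes (horizontal axis), with grey symbols for 4 control and red symbols for 4 *Rbfox2*-/- mice, horizontal lines for group means and bars for 1 SD. *Arhgap15* has a gap of 0.78 between the groups, those of *Arhgap12* and *Arhgap27* are 0.0056 and 0.015, *Arhgap27* of M909 stands above the other mice, and *Arhgap9*, with 15 to 37 counts per mouse, scatters most.

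The annotation places *Arhgap15* over 647 kb of chromosome 2 with 5 transcripts, and the RefSeq (GRCm38.p6) promoter table holds 2 of its start sites. Promoter windows of 300 bases, from 250 before to 50 after a start, were found for 5 of the 10 genes (*Arhgap15*, *Arhgap27*, *Rac3*, *Pak1* and *Pak3*). *Arhgap12* was left out of this search. Both *Arhgap15* windows are printed because this gene differed most, and the upstream *Pak1* window is printed as a contrast in base composition. All are given 5′ to 3′ on the strand of the gene, with matches to the searched letters in capitals.
Arhgap15 chr2:43748574-43748873: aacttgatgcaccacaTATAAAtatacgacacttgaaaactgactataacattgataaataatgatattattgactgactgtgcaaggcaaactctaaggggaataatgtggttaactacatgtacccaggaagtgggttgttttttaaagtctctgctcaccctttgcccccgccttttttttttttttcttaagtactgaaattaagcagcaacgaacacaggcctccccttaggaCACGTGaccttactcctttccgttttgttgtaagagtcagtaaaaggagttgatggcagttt
Arhgap15 chr2:43787105-43787404: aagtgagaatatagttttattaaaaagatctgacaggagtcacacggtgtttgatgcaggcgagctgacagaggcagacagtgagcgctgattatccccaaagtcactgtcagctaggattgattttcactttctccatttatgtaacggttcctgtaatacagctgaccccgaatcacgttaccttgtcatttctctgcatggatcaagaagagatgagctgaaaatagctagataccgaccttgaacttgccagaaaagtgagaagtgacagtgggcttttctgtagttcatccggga
Pak1 chr7:97788291-97788590: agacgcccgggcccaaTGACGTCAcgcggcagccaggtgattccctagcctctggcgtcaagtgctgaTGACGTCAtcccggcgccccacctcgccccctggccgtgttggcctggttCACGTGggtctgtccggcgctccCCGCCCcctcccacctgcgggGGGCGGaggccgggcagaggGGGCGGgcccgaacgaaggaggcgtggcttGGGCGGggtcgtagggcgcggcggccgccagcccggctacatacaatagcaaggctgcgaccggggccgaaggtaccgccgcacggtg
The upstream *Arhgap15* window had 38.7% G and C and 5 CpG dinucleotides, and the downstream window had 43.7% and 8, against medians of 52.7% and 7 over 32817 windows. The *Pak1* window had 73.0% and 35. Letters of 6 motifs were searched on both strands. In the upstream *Arhgap15* window, TATAAA (known from core promoters) stood at bases 17 to 22, far upstream of the start, and CACGTG (an E-box) at bases 239 to 244. These letters occur in 13.6% and 7.15% of all windows. The other 4 searched motifs, GGGCGG (a GC box, in 35.6% of windows), TGACGTCA (a cyclic AMP response element, 1.79%), GAGGAAGT (an ETS site of PU.1 type, 3.20%) and the estrogen response element (0.0701%), had no match in either *Arhgap15* window. In the *Pak1* window, GGGCGG matched 4 times, TGACGTCA 2 times and CACGTG 1 time. These matches describe letters and not binding.

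Rbfox proteins bind the RNA letters UGCAUG, mostly in introns near alternative exons and also in 3′ UTRs. As DNA letters, TGCATG was counted on the sense strand of the longest protein-coding GENCODE transcript of each gene. It was present in 56.1% of 14925 transcripts, and in 7 of the 10 members. *Pak3* had 6 matches, or 0.693 per kb, more per kb than 89.1% of genes. *Rac1* and *Pak2* had 2 each, *Arhgap15*, *Arhgap12*, *Rac2* and *Pak1* had 1 each, and *Arhgap9*, *Arhgap27* and *Rac3* had 0. The windows of 30 bases are printed for *Arhgap15*, whose level differed between the groups, for *Pak3*, which had the most matches and nearly equal group means, and for the *Pak2* match in coding sequence. The letters in capitals lie at the GRCm38 position before the colon.
Arhgap15 chr2:44395741-44395746: ctgtgttttaatTGCATGtgaccctggcag
Pak2 chr16:32031617-32031622: gtaacagaaaccTGCATGgacgaagcgcag
Pak3 chrX:143793534-143793539: gttaacacctttTGCATGttgtaaaggcct
Pak3 chrX:143795484-143795489: atgcccttgtgcTGCATGattgtagcatgt
Pak3 chrX:143795893-143795898: tgaacatatattTGCATGtggattggaaag
Pak3 chrX:143796075-143796080: accaacctctaaTGCATGgggatgtctgtt
Pak3 chrX:143797030-143797035: aaaaatagcaatTGCATGcttttaactggc
Pak3 chrX:143797711-143797716: aaatatggattgTGCATGactgtgtcttga
The *Arhgap15* match (bases 2906 to 2911 of 3118) and all those of *Pak3* lie in the 3′ UTR. Of the 13 matches placed, which leave out that of *Arhgap12*, 12 were in a 3′ UTR and 1, in *Pak2*, was coding. Introns were not searched, and the counts per gene used here do not resolve exons.

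Levels of different genes were compared per length, with the deposited FPKM values (fragments scaled by gene length and library size). In controls *Rac1* was highest with 62.6 FPKM, followed by *Pak2* with 24.0, *Pak3* with 15.6, *Pak1* with 14.9, *Arhgap12* with 11.4, *Rac3* with 7.03, *Arhgap27* with 3.92, *Arhgap15* with 1.11, *Rac2* with 0.203 and *Arhgap9* with 0.0619 FPKM. Among neighbours in this order, the ranges over mice overlapped for *Pak3* and *Pak1* in both groups and for *Rac3* and *Arhgap27* in *Rbfox2*-/- retinas. The other neighbours were apart in both groups. *Arhgap15* kept its place in the order, at 2.16 ± 0.144 FPKM (SD, n = 4) in *Rbfox2*-/- against 1.11 ± 0.0652 FPKM (SD, n = 4) in control retinas. *Rac2* and *Arhgap9*, the members best known from blood cells, were the lowest in the retina.

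**Figure D2:**
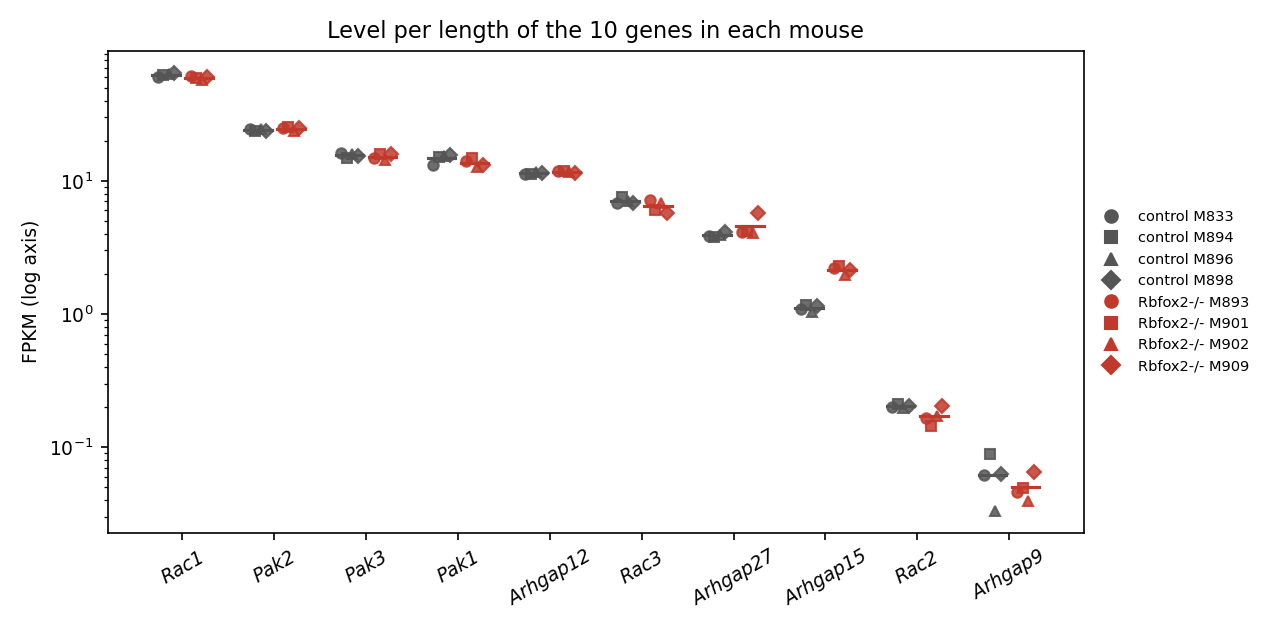
Deposited FPKM (vertical axis, log scale) of the 10 genes in each mouse, in the order of the control mean, with grey symbols for control and red symbols for *Rbfox2*-/- mice and lines for group means. The levels run from 62.6 FPKM for *Rac1* to 0.0619 FPKM for *Arhgap9* in controls, and *Arhgap15* lies between *Arhgap27* and *Rac2*.

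Within the subfamily, *Arhgap12* and *Arhgap27*, whose proteins carry SH3 and WW domains beside the GTPase-activating domain, were the abundant members. *Arhgap12* (chromosome 18) had 57.2, 55.8, 58.0 and 57.1 CPM in controls and 59.1, 60.7, 58.9 and 58.2 CPM in *Rbfox2*-/- mice. The groups did not overlap, but only by 0.0056 on the log2 scale, and the log2 fold change of 0.055 (standard error 0.032, 95% CI -0.016 to 0.13) had an edgeR FDR of 0.487. *Arhgap27* (chr11:103331497-103363692, minus strand) had 13.8, 13.1, 13.8 and 14.3 CPM in controls, and 14.5, 14.97, 14.6 and 20.4 CPM in *Rbfox2*-/- mice, the last in M909. All 4 *Rbfox2*-/- mice were above the controls, 3 of them only slightly. Its log2 fold change was 0.23 (standard error 0.105, 95% CI -0.0048 to 0.465, edgeR FDR 0.386). It was 0.096 without M909 and 0.34 without M901 and M902. *Arhgap9*, known from blood cells, had 0.0784 to 0.209 CPM in controls and 0.0945 to 0.156 CPM in *Rbfox2*-/- mice, a log2 fold change of -0.28 (standard error 0.33, 95% CI -1.01 to 0.46, edgeR FDR 0.756). That value was -0.056 without M894, -0.48 without M896, -0.18 without M902, -0.43 without M909 and -0.14 without M901 and M902. Over 4 mice it summed to 109 counts in controls (exact Poisson 95% interval 89.5 to 131) and 87 in *Rbfox2*-/- (69.7 to 107), an interval that covers counting error only. With the counts scaled by upper quartile or by library totals, the groups of *Arhgap12* and *Arhgap27* overlapped.

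As a share of the summed FPKM of the subfamily, *Arhgap15* made up 6.69, 7.19, 6.18 and 6.84% in controls and 12.1, 12.5, 11.1 and 11.04% in *Rbfox2*-/- mice. *Arhgap12* made up 69.1 ± 0.651% and 63.5 ± 2.99%, and *Arhgap27* 23.8 ± 0.525% and 24.5 ± 3.36% (SD, n = 4 each). The sum was 16.2 to 16.9 FPKM in controls and 17.7 to 19.5 FPKM in *Rbfox2*-/- mice. Of the difference of 1.96 FPKM between the group means, 53.5% was *Arhgap15*, 31.7% *Arhgap27* and 15.4% *Arhgap12*. Without M909 the difference was 1.62 FPKM, of which 64.8% was *Arhgap15*, 13.5% *Arhgap27* and 22.8% *Arhgap12*. *Arhgap15* thus went from about 7% to about 12% of a subfamily that stayed dominated by *Arhgap12*.

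**Figure D3:**
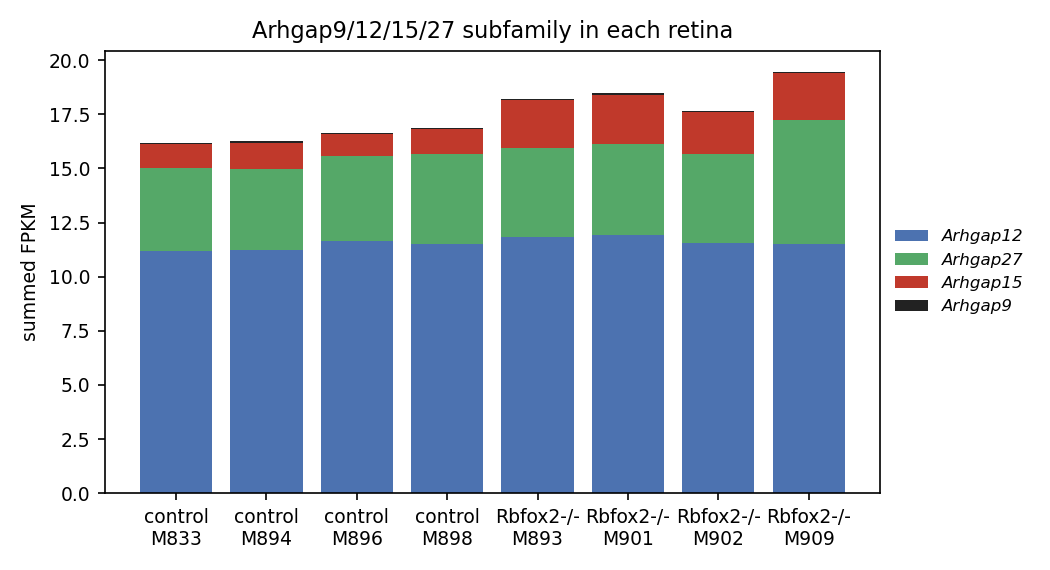
Deposited FPKM of *Arhgap12*, *Arhgap27*, *Arhgap15* and *Arhgap9*, stacked (vertical axis) for each of 4 control and 4 *Rbfox2*-/- mice (horizontal axis). The red *Arhgap15* segment is taller in every *Rbfox2*-/- mouse, and the green *Arhgap27* segment is tallest in M909.

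The GTPases acted on by this subfamily showed no change that passed the test. *Rac1*, the form made in nearly all cells, had 138, 139, 143 and 145 CPM in controls and 138, 136, 130 and 138 CPM in *Rbfox2*-/- mice. Of the *Rbfox2*-/- mice, 3 were below all controls, and the log2 fold change was -0.059 (standard error 0.032, 95% CI -0.13 to 0.011, edgeR FDR 0.445), or -0.037 without M901 and M902. *Rac2*, the blood cell form, had 0.615, 0.633, 0.596 and 0.604 CPM in controls and 0.50, 0.441, 0.523 and 0.625 CPM in *Rbfox2*-/- mice, from 83 to 128 counts per mouse. M909 was within the controls and the other 3 were below them, and the log2 fold change was -0.23 (standard error 0.159, 95% CI -0.58 to 0.13, edgeR FDR 0.569). It was -0.12 without M901 and M902. *Rac2* lies on chromosome 15 at 1.25 Mb from *Rbfox2*. *Rac3*, the form of the nervous system, had 7.24 to 7.98 CPM in controls and 6.17 to 7.74 CPM in *Rbfox2*-/- mice, and in these overlapping groups the log2 fold change was -0.11 (standard error 0.082, 95% CI -0.29 to 0.076, edgeR FDR 0.604), or -0.051 without M909. *Rac1* made up 89.6 ± 0.527% of the Rac FPKM in controls and 89.97 ± 1.04% in *Rbfox2*-/- mice (SD, n = 4 each).

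The Pak kinases that bind active Rac did not pass the test either. *Pak2*, the widely expressed form, had 142, 135, 138 and 133 CPM in controls and 142, 147, 136 and 144 CPM in *Rbfox2*-/- mice, a log2 fold change of 0.055 (standard error 0.034, 95% CI -0.022 to 0.13, edgeR FDR 0.526). *Pak1*, a form abundant in neurons, had 41.0, 45.9, 46.9 and 46.8 CPM in controls and 42.9, 45.9, 39.5 and 40.3 CPM in *Rbfox2*-/- mice. Its groups overlapped because of M833, and the log2 fold change was -0.10 (standard error 0.061, 95% CI -0.24 to 0.036, edgeR FDR 0.513), or -0.15 without M833 (edgeR FDR 0.227). *Pak3*, the X-linked neuronal form, had 122 to 137 CPM in controls and 120 to 135 CPM in *Rbfox2*-/- mice, a log2 fold change of -0.017 (standard error 0.049, 95% CI -0.12 to 0.092, edgeR FDR 0.917) whose sign turned with M833 or M902 left out. With each of the 8 mice left out in turn it lay between -0.044 and 0.0114. Of the 9 members besides *Arhgap15*, 0 had an edgeR FDR under 0.05 and 0 an unadjusted p under 0.05. In 2 of the 9 the groups did not overlap, where the share over all genes tested was 7.03%. By sign 3 of the 9 members were higher and 6 lower. Their median log2 fold change was -0.059, where that of all tested genes was 0.0016. DESeq2, limma-voom and limma-trend called 0 of these 9 as well, where DESeq2 gave no adjusted p for *Arhgap9*.

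Other genes of the pathway were counted from 8 lists with 83 genes. None of the 83 had an edgeR FDR under 0.05, and 11 had an unadjusted p under 0.05 (13.3%, the share over all genes), 4 higher and 7 lower. By sign 23 were higher and 60 lower, with a median log2 fold change of -0.036. DESeq2 called *Dock4* and *Limk2* among them, where it called 465 of 15137 genes of the whole table. Of 22 Rac exchange factors, 4 had an unadjusted p under 0.05. *Dock4* had 25.2 to 26.98 CPM in controls and 21.5 to 24.6 CPM in *Rbfox2*-/- mice without overlap (log2 fold change -0.19, edgeR FDR 0.215), and *Vav3* had 19.5 to 21.7 and 21.6 to 23.9 CPM (0.17, edgeR FDR 0.243). Of 14 other Rac GTPase-activating proteins, 1 had an unadjusted p under 0.05. This was *Chn2*, encoding a chimaerin, with 30.4 to 32.4 CPM in controls and 28.9 to 30.2 CPM in *Rbfox2*-/- mice (log2 fold change -0.094, edgeR FDR 0.344), and *Srgap2* was next in size with -0.059 (edgeR FDR 0.660). Of 3 GDP-dissociation inhibitor genes 0 had an unadjusted p under 0.05, with log2 fold changes of -0.064 for *Arhgdia* and 0.17 for *Arhgdib* (edgeR FDR 0.546 and 0.641).

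Of 11 WAVE complex genes, 2 had an unadjusted p under 0.05, *Abi3* with 0.21 (edgeR FDR 0.358) and *Wasf3* with 0.091 (edgeR FDR 0.360), and *Nckap1l*, the leukocyte form of a WAVE subunit, was at -0.20 (edgeR FDR 0.378). Of 3 further Pak kinases 0 had an unadjusted p under 0.05, with 0.052 for *Pak4* and 0.062 for *Pak5*, listed as *Pak7* (edgeR FDR 0.669 and 0.638). Of 13 Pak partners and genes of the LIM kinase path, 1 had an unadjusted p under 0.05. This was *Limk2*, a kinase that inactivates the actin-severing cofilin, with 180, 192, 181 and 180 CPM in controls and 198, 199, 201 and 200 CPM in *Rbfox2*-/- mice. The groups did not overlap, and the log2 fold change was 0.12 (standard error 0.031, edgeR FDR 0.190).

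All 5 NADPH oxidase genes had a negative log2 fold change, with a median of -0.36, and 0 of the 5 had an edgeR FDR under 0.05 (1 had an unadjusted p under 0.05). *Cyba*, encoding the small membrane subunit, was at -0.36 (edgeR FDR 0.397) and *Ncf1*, a cytosolic subunit, at -0.21 (edgeR FDR 0.440). *Cybb*, the catalytic subunit, named after its values were seen, had 0.567, 0.741, 0.627 and 0.728 CPM in controls and 0.523, 0.145, 0.170 and 0.375 CPM in *Rbfox2*-/- mice (log2 fold change -1.13, edgeR FDR 0.268). Among 28 other genes named Arhgap and a number, 0 had an edgeR FDR under 0.05 and 3 an unadjusted p under 0.05, with a median log2 fold change of 0.0088. *Arhgap6*, a GTPase-activating protein gene, had 5.21 to 5.93 CPM in controls and 4.04 to 4.74 CPM in *Rbfox2*-/- mice (log2 fold change -0.34, edgeR FDR 0.178). *Arhgap42*, of the same kind, had 9.18 to 10.6 and 8.36 to 8.99 CPM (-0.22, edgeR FDR 0.221). DESeq2 called both, among the 465 of 15137 genes that it called.

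Since *Arhgap15*, *Arhgap9* and *Rac2* are also genes of blood cells, markers of microglia, macrophages, lymphocytes and neutrophils were set beside them. The summed level of 16 microglia and macrophage markers was 96.7, 99.2, 91.3 and 101.6 CPM in controls and 96.0, 84.6, 79.8 and 100.4 CPM in *Rbfox2*-/- mice. Of the 16, 0 had an edgeR FDR under 0.05 and 1 an unadjusted p under 0.05, 12 were lower and 4 higher by sign, and the median log2 fold change was -0.12. M901 and M902 were below every control in this sum, and M893 and M909 were within the controls. The marker with the largest log2 fold change was *Cd68* (-0.31, edgeR FDR 0.563), and *Aif1* was lowest with at most 0.517 CPM in any mouse. *Arhgap15* in CPM equalled 2.96 to 3.08% of the marker sum in controls and 5.71 to 7.31% in *Rbfox2*-/- mice. The part of these markers in the level of *Arhgap15* was not tested. Of 12 lymphocyte and neutrophil markers 7 were in the table, and the 6 that passed the filter summed to 0.980 to 1.37 CPM in controls and 0.863 to 1.41 CPM in *Rbfox2*-/- mice, while *Cd3e*, *Cd3g*, *Ms4a1*, *Nkg7* and *Ly6g* had no row.

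M909, the mouse with the highest *Arhgap27*, also had the highest sum of epithelial markers. This match rests on M909 alone and does not show that the levels vary together over mice. The sum of 13 surface epithelium markers, those that passed the filter of a list of 14 chosen after the value of M909 was seen, was 12.1 to 15.7 CPM in controls, 13.9, 18.5 and 14.98 CPM in M893, M901 and M902, and 97.5 CPM in M909. The basal keratin genes *Krt15* and *Krt5* reached 39.3 and 24.7 CPM in M909 and at most 3.27 and 2.47 CPM in the other mice. Not every marker of the list was raised in M909, and *Esrp1* was at 2.10 CPM there against 1.70 to 2.31 CPM in controls. M833, the control with the lowest *Pak1*, also had the lowest sum of ganglion cell markers. The sum of 10 such markers was 722 CPM in M833 and 1123 to 1173 CPM in the other controls. It was 1152 and 1204 CPM in M893 and M901, and 1056 and 910 CPM in M902 and M909. *Pak1* was lowest in M902, then M909, then M833, while the sum was lowest in M833, then M909, then M902. The part of these markers in the levels of *Arhgap27* and *Pak1* was not tested. The plots of each gene against its marker sum show the 8 mice.

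**Figure D4:**
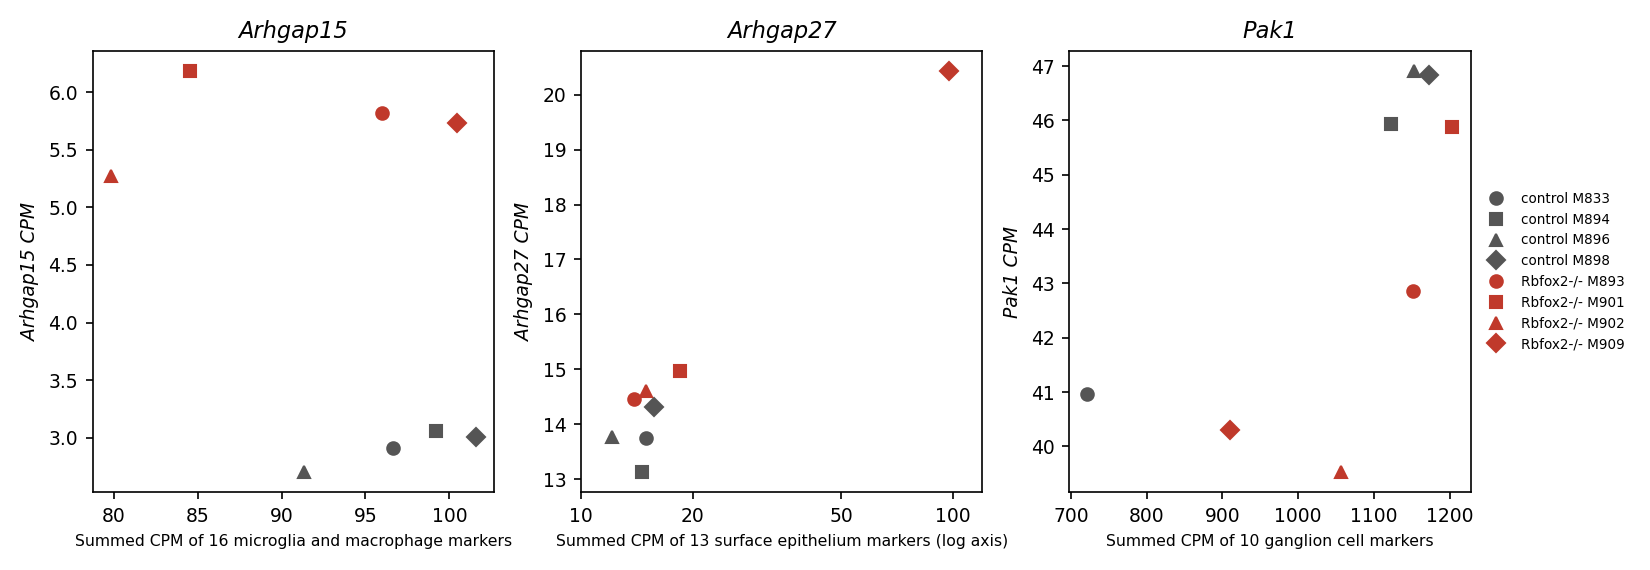
CPM of *Arhgap15*, *Arhgap27* and *Pak1* (vertical axes) against the summed CPM of microglia and macrophage, surface epithelium (log axis) and ganglion cell markers (horizontal axes), 1 symbol per mouse, grey for control and red for *Rbfox2*-/-. *Arhgap15* is higher in all *Rbfox2*-/- mice, of which M901 and M902 have lower microglial sums than every control, M909 stands apart for *Arhgap27* at a sum of 97.5 CPM, and M833 has the lowest ganglion cell sum.

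The genes whose log2 CPM followed that of *Arhgap15* most closely over the 8 mice, among 13755 genes with at least 1 CPM on average, were *Itpr1* (Pearson's r 0.976), *Olfml3* (0.975), *Pla2g7* (0.975), *Snrpg* (0.974) and *Vopp1* (0.973). *Olfml3*, a microglial gene that is not among the 16 markers above, had a log2 fold change of 0.52. *Rbfox2* (-0.982) and *Calb1* (-0.972) were the most opposed. These coefficients describe mice of 2 groups that differ in *Arhgap15*. A gene with a clear group difference thus tends to a strongly positive or strongly negative coefficient. Of the members, *Arhgap12* had 0.79, *Pak2* 0.62 and *Rac1* -0.64. Of deviations from the group means, the closest were *Tmed4* (0.976), *Mpv17l2* (0.976), *Rabepk* (0.971), *A830082K12Rik* (0.962) and *Wdr83os* (0.949). By this measure *Arhgap12* had -0.0023, *Pak2* 0.33 and *Rac1* 0.33, a change of sign for *Rac1*. The points share library and depth, and only 8 mice entered the comparison over 13755 genes.

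The annotated neighbours of *Arhgap15* within 1 Mb that were in the table were *Kynu*, *Gtdc1*, *Zeb2* and *Zeb2os*. *Kynu*, encoding kynureninase, lies 66.1 kb away, and its log2 fold change was 0.63 (standard error 0.324, edgeR FDR 0.435) at 0.202 CPM in controls and 0.311 CPM in *Rbfox2*-/- mice. *Gtdc1* was at -0.088 (edgeR FDR 0.396), *Zeb2*, encoding a transcription factor of neural development, at -0.021 (edgeR FDR 0.871) and *Zeb2os* at 0.021 (edgeR FDR 0.955). The groups overlapped in all 4 neighbours.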

How the data were processed

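The libraries were poly(A)-selected retinal RNA, 1 per mouse, from 4 *Rbfox2*-/- and 4 control animals. According to the study's methods, paired reads were aligned to mm10 by STAR, and the authors used HTSeq to count the fragments on each gene from unique alignments. A RefSeq and an Ensembl annotation are both named, strandedness is not given in the sources used here, and the submitters' processing notes name CASAVA 1.8.2 and edgeR. The authors deposited these counts without normalization, beside FPKM values, whose gene lengths are not stated. The table also holds an adjusted signal, log2 fold changes and p-values of the authors' own comparison, which were not used.

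The 10 genes, the lists and the tests were chosen with earlier results of these data known. The filter filterByExpr of edgeR 4.0.16 (R 4.3.3) kept 16797 of 17500 genes, libraries were scaled by TMM, and the quasi-likelihood test was run with group as the only term. Each FDR was adjusted over all genes tested. Standard errors were derived from the F statistic. CPM are counts scaled to the normalized library size. The deposited FPKM served to compare levels between genes. Alternatives used DESeq2 1.42.0, limma 3.58.1 and sva 3.50.0. The procedure was tested on simulated counts of 16718 genes. Of 200 genes set to differ 2-fold, 95% were recovered at an FDR under 0.05, with 17 false calls. In 28 pairs, no libraries agreed within sampling noise (lowest chi-square per degree of freedom 30.6, for M901 and M902), so none looked like a repeat run of another. Each mouse was taken as 1 replicate, and this comparison does not test whether mice are independent. Unique mapping can lose reads of genes with near-identical copies.

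Genes named are the 10 members, genes of the pathway lists with an FDR under 0.05 or an unadjusted p under 0.01 and otherwise the 2 of a list with the largest log2 fold change at a mean of at least 1 CPM, the 5 genes most like *Arhgap15* over mice and the 5 most like it in deviations from group means, its annotated neighbours within 1 Mb, and of marker lists the defining markers near 0 and the one with the largest log2 fold change. *Chn2*, *Wasf3*, *Cybb*, *Krt15*, *Krt5*, *Esrp1*, *Lhx1*, *Best2*, *Rlbp1*, *Rbfox2* and *Calb1* were named after their values were seen. Promoter windows are from RefSeq (GRCm38.p6), and gene positions and transcripts from GENCODE M21 (GRCm38). Marker lists for microglia and macrophages, lymphocytes and neutrophils, GABAergic amacrine, horizontal and ganglion cells, photoreceptors, surface epithelium, and ciliary body, pigment epithelium and lens were summed in CPM. Proteins were not analysed here. The values of 1 of the 8 pathway lists and the name of the Cre line are not reported here.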

Additional observations from a re-analysis of the deposited data

Results flagged for a closer look

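In 20 groups of 4 mice, the sample at either end was compared with the others by its gap over the whole range (Dixon's ratio at its 95% critical value), and chance gives about 1 such sample in 20 groups. *Arhgap27* in M909, at 20.4 CPM, had a ratio of 0.915 among the *Rbfox2*-/- mice. *Pak1* in M833, at 41.0 CPM, had a ratio of 0.836 among the controls.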

How the results depend on the processing

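The 9 members besides *Arhgap15* stayed above an FDR of 0.05 under all 18 alternatives (17 for *Arhgap9*), and the sign changed only for *Pak3*, from -0.044 to 0.0114 with 1 mouse left out (0.0086 without M833 and 0.0114 without M902). The number of all genes with an FDR under 0.05 was 11, against 164 with the likelihood ratio test, 465 with DESeq2, 5 with 1 surrogate variable, 1 without M901 and M902, and 5 to 35 with 1 mouse left out. With 1 mouse left out, 35 came without M833, 19 without M894, 6 without M898, 9 without M902 and 5 without M896, M893, M901 or M909. For the 105 pathway and other Arhgap genes it was 0, and 4 with DESeq2. The members whose groups did not overlap, *Arhgap15* included, numbered 3, against 1 with upper-quartile scaling and 1 with library totals, and 3 to 5 with 1 mouse left out (5 without M833, where *Rac1* and *Pak1* joined, and 5 without M909, where *Rac1* and *Rac2* joined). The share of all genes without overlap, 7.03%, is given for the main fit only. With a mouse left out, non-overlap is easier to reach. The cause of the changes in these numbers was not tested. The median log2 fold change of all genes was 0.0016 with TMM, -0.0052 with upper-quartile scaling and -0.015 with library totals. No paired analysis was possible because mouse numbers pair no control with an *Rbfox2*-/- mouse and replicate numbers only name them. The members with the fewest counts were *Arhgap9* (15 to 37 per mouse) and *Rac2* (83 to 128 per mouse). Nothing marks litters or batches. The p-values set the group difference against the spread between mice of the same group, and differences between litters or batches could not be separated from it.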

Other observations

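Marker genes of retinal cells outside the comparisons above varied as follows. Of 6 horizontal cell markers 1 passed, *Calb1*, which encodes calbindin and had a log2 fold change of -0.40 (edgeR FDR 0.00341). By sign 5 were lower and 1 higher. The higher one, *Lhx1*, was at 0.18 (edgeR FDR 0.353), and it and *Calb1* had an unadjusted p under 0.05. The list summed to 393 to 423 CPM in controls and 375 to 385 CPM in *Rbfox2*-/- mice. Of 10 GABAergic amacrine cell markers 0 passed and 1 had an unadjusted p under 0.05, *Npy* at 0.26 (edgeR FDR 0.244), while 8 were lower and 2 higher by sign with a median of -0.049, and of 10 ganglion cell markers 0 passed and 0 had an unadjusted p under 0.05. Of 10 photoreceptor markers 0 passed and 4 had an unadjusted p under 0.05, with 8 higher and 2 lower by sign, *Opn1sw*, encoding a cone opsin, at 0.26 (edgeR FDR 0.192), and the other cone opsin gene of the list, *Opn1mw*, named after its value was seen, at -0.23 (edgeR FDR 0.353).

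Of 10 markers of ciliary body, pigment epithelium and lens 0 passed and 3 had an unadjusted p under 0.05 by edgeR. *Pmel*, a melanosome gene, had the largest log2 fold change with -2.13 (edgeR FDR 0.338), at 2.87, 21.7, 4.69 and 51.7 CPM in M833, M894, M896 and M898 and 8.88, 1.69, 2.71 and 5.18 CPM in M893, M901, M902 and M909. These tissues adjoin the retina. *Pmel* varied widely within both groups, while *Rlbp1*, another marker of the list, had 436 to 471 CPM in controls and 440 to 505 CPM in *Rbfox2*-/- mice.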
